A study of Oryctolagus cuniculus with 4 samples.

Results

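Rabbit tendon stem/progenitor cells cultured with platelet-rich plasma (PRP) carried 4 abundant transcripts that were detected at far lower levels without it. By the main edgeR fit below, their genes lay away from any other gene called higher in PRP. This did not hold for all of them in every alternative fit. They were found by position among the 29587 genes listed in the OryCun2.0 rabbit genome: 1 on chromosome 5, 1 on chromosome 13 and 1 each on the unplaced sequences GL018806 and GL018717. The genes were chosen by their measured counts: their high level with PRP, their difference from noPRP and the lack of called neighbours, in the same libraries that are described here. Their levels and fold changes with PRP are therefore a description, and no test of that contrast is given for them. The files give an identifier and exon positions for each gene but no symbol, so the 4 genes are named by their sequence and no function is assigned to them.

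The cells came from New Zealand White rabbits, and 2 groups were sequenced: cells in medium without PRP (noPRP) and cells in medium with 10% (v/v) PRP, with 2 libraries in each. Messenger RNA was purified from total RNA, and each gene's value is its raw number of reads. Whether the libraries within a group stem from different animals or cultures is not stated, so the test below may measure technical spread alone. No marker of tendon cells, platelets or leukocytes could be checked because the identifiers carry no names. Total counts ranged from 20100175 to 20947284 without PRP and from 23829027 to 24064713 with PRP.

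PRP is a fraction of blood plasma enriched in platelets, which release growth factors and cytokines from their granules when they are activated. Tendon stem/progenitor cells are the cells of tendon that can divide in culture and give rise to tendon cells and, under other conditions, to other connective tissue cells. In culture, plasma supplements act on such cells through receptors for growth factors, cytokines and lipids, and serum or plasma factors are known to change transcription within hours. In RNA from a whole culture, fewer cells of a type and less RNA per cell cannot be told apart.

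All 4 genes were among the genes called higher in PRP, which made up 0.535% of the 12707 tested genes (68 genes, by edgeR's quasi-likelihood test at an adjusted p under 0.05; 0.323% were called lower). Both PRP libraries were above both noPRP libraries for each of the 4, a pattern shown by 23.8% of tested genes. Both counts follow from how the genes were picked. Levels below are CPM, the share of a library's counts times 1000000, scaled by the trimmed mean of M values, and levels between genes are compared as CPM per kilobase of exon.

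The chromosome 5 gene, ENSOCUG00000009058, lies on the minus strand at positions 27498985 to 27502985 and spans 4001 bases. The annotation lists 9 distinct exons with 7 distinct starts, which merge into 6 blocks and 1302 exonic bases. The block at its 3′ end holds 929 bases, or 71.4% of the exonic length, and the shortest block is listed with 2 bases. Its level was 12.7 and 14 CPM in noPRP replicates 1 and 2, from 280 and 319 counts. In PRP replicates 1 and 2 it was 2029 and 1276 CPM, from 48786 and 25592 counts. The noPRP libraries were nearly level with each other, and the PRP libraries lay far above them. Means by group were 13.4 ± 0.916 CPM without PRP and 1653 ± 532 CPM with it (SD, n = 2 each), with a fitted log2 fold change of 6.95 (SE 1.0), or 123-fold. Taken one PRP library against one noPRP library at a time, the ratio ran from 90.9 to 159.

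The chromosome 13 gene lies on the minus strand at positions 52895027 to 52907348, a span of 12322 bases with 10 exonic blocks of 30 to 219 bases and 1354 exonic bases in all. Its level was 14.2 and 66.3 CPM in noPRP replicates 1 and 2, from 313 and 1506 counts. In the PRP libraries it was 7712 and 1774 CPM, from 185399 and 35579 counts. Of the 4 genes it reached the highest level in any library, in PRP replicate 1, and it differed most between the libraries of each group. Mean levels were 40.3 ± 36.8 CPM without PRP and 4743 ± 4198 CPM with it (SD, n = 2 each), and the fitted log2 fold change was 6.88 (SE 1.26), or 118-fold. Single-library ratios ran from 26.8 to 541. Each of the 4 libraries moved this fold by more than 1.5 times when it was left out: it was 72.2-fold without noPRP replicate 1, 331-fold without noPRP replicate 2, 44.4-fold without PRP replicate 1 and 201-fold without PRP replicate 2.

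The GL018806 gene lies on the plus strand at positions 727614 to 730825, a compact span of 3212 bases with 8 exonic blocks of 44 to 300 bases and 1027 exonic bases. It already had 119 and 64.2 CPM in noPRP replicates 1 and 2, from 2621 and 1459 counts. In the PRP libraries it had 2107 and 3133 CPM, from 50653 and 62819 counts. By mean CPM this gene had the highest level without PRP, and its fold change was the smallest of the 4. By group, the mean was 91.7 ± 38.9 CPM without PRP and 2620 ± 725 CPM with it (SD, n = 2 each), and the fitted log2 fold change was 4.84 (SE 0.94), or 28.6-fold. Single-library ratios ran from 17.7 to 48.8. It was no longer among the called genes without noPRP replicate 2, where the fold was 21.8 and the lone noPRP library was assumed to vary like the PRP libraries.

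The GL018717 gene lies on the minus strand at positions 2873101 to 2906600, the longest span of the 4 with 33500 bases. Its 12 exons are each listed once, hold 2335 bases and make up 6.97% of the span, and the one at the 3′ end holds 1052 bases. Its level was 27.0 and 19.3 CPM in noPRP replicates 1 and 2, from 593 and 439 counts. In the PRP libraries it was 1331 and 2149 CPM, from 32007 and 43084 counts. The groups lay far apart, and within each the libraries differed by less than those of most tested genes. Averages by group were 23.2 ± 5.42 CPM without PRP and 1740 ± 578 CPM with it (SD, n = 2 each), and the fitted log2 fold change was 6.23 (SE 0.98), or 75.1-fold. Single-library ratios ran from 49.3 to 111.

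**Figure D1:**
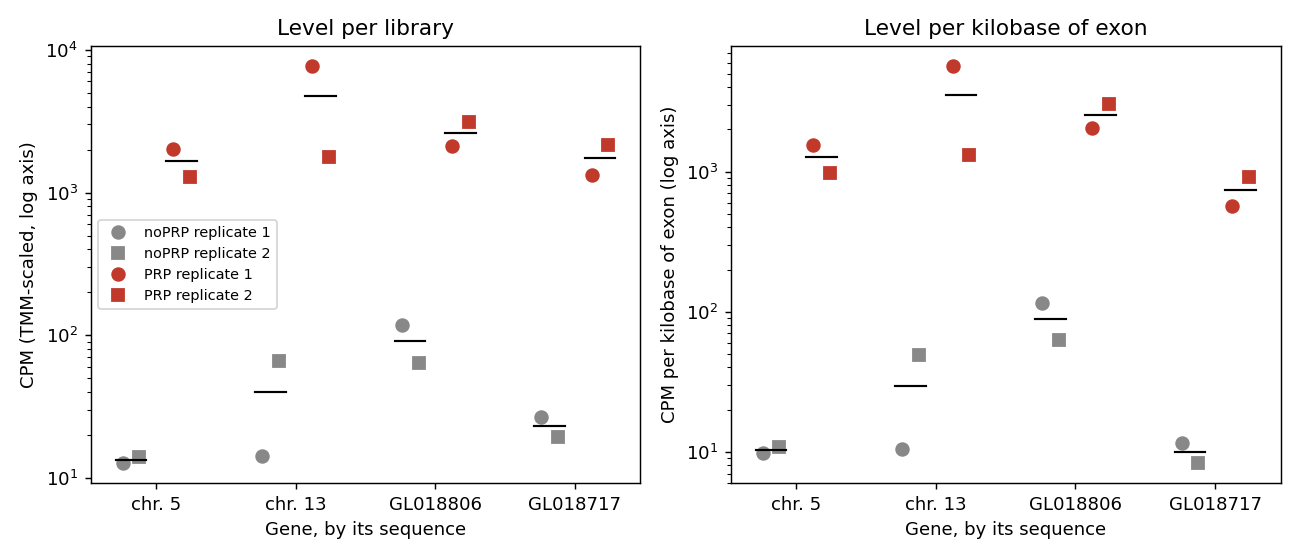
Level of each of the 4 genes in every library, in CPM on the left and in CPM per kilobase of exon on the right, both on log axes; grey marks are noPRP and red marks PRP libraries, circles replicate 1 and squares replicate 2, and black bars are group means. The groups do not overlap for any of the genes, and the chromosome 13 gene has the widest gap between libraries of a group, at 1774 and 7712 CPM with PRP.

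The exonic lengths of 1027 to 2335 bases compare with quartiles of 1187 and 3212 bases and a median of 2006 in tested genes. The GL018806 gene lay below the lower quartile, the chromosome 5 and chromosome 13 genes between it and the median, and the GL018717 gene above the median. The 6 to 12 exonic blocks lay within the quartiles of 4 and 15. The spans were less alike, from 3212 to 33500 bases against a median of 23128 in tested genes. In the 68 genes called higher the medians were 8947 bases of span, 1326 exonic bases and 6.5 blocks. For all but the GL018717 gene the annotation repeats exons, with 22, 19 and 19 exon lines for 9, 11 and 11 distinct exons.

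Without PRP each of these genes had counts in both libraries. Per kilobase, the GL018806 gene had 89.3 ± 37.9 CPM in noPRP, above 92.3% of tested genes. The chromosome 13 gene had 29.7 ± 27.2, above 79.1%, the chromosome 5 gene 10.3 ± 0.704, above 57.8%, and the GL018717 gene 9.91 ± 2.32, above 57% (CPM per kilobase, mean ± SD, n = 2 each). The median of tested genes was 7.31 CPM per kilobase. The GL018806 gene was first of the 4 in both noPRP libraries. The order of the other 3 was not settled: in noPRP replicate 1 the GL018717, chromosome 13 and chromosome 5 genes had 11.6, 10.5 and 9.79 CPM per kilobase, and in replicate 2 the same genes had 8.27, 48.9 and 10.8. Among the 68 genes called higher, whose median noPRP level was 0.203 CPM, the 4 ranked 3rd, 4th, 9th and 11th by noPRP level, in the order GL018806, chromosome 13, GL018717 and chromosome 5.

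With PRP the same genes moved near the top of the transcript pool. By mean PRP level in CPM they ranked 19th (chromosome 13), 40th (GL018806), 70th (GL018717) and 77th (chromosome 5) of the tested genes, after ranks of 3544, 1764, 5036 and 6572 without PRP. Per kilobase, the PRP means were 3503 ± 3101 for the chromosome 13 gene, 2551 ± 706 for the GL018806 gene, 1269 ± 409 for the chromosome 5 gene and 745 ± 247 for the GL018717 gene (CPM per kilobase, SD, n = 2 each). The GL018806 gene was above the chromosome 5 and GL018717 genes in both PRP libraries, and the chromosome 5 gene was above the GL018717 gene in both. The first 2 places were not settled: the chromosome 13 gene led in PRP replicate 1 and the GL018806 gene in PRP replicate 2. In PRP replicate 2 the 4 levels were closer together, with a ratio of highest to lowest of 3.32, against 9.99 in PRP replicate 1.

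By size of change the 4 genes were not the extreme of the called genes. Genes at 0 in noPRP were set to their bound, computed from a floor of 3 counts summed over the noPRP group. On that basis the changes ranked 26th (chromosome 5), 27th (chromosome 13), 34th (GL018717) and 63rd (GL018806) of the 68 genes called higher, whose median log2 fold change was 6.22. Over all tested genes the median was 0.04. By mean PRP CPM they stood higher in the list, where they ranked 3rd, 6th, 10th and 12th of the 68, whose median was 29.0 CPM.

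**Figure D2:**
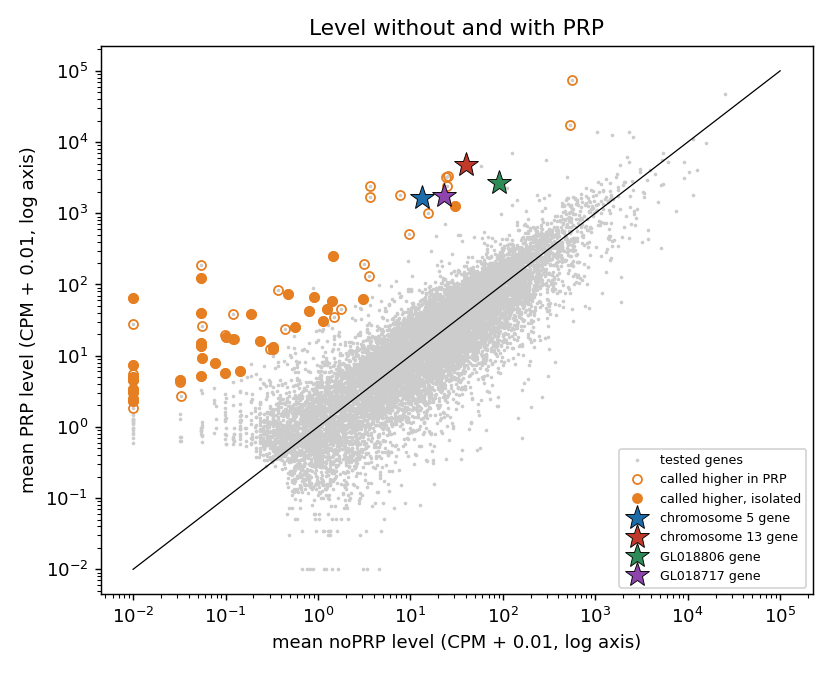
Mean noPRP level against mean PRP level of every tested gene, in CPM plus 0.01 on log axes, with the line of equal levels. Circles are the genes called higher in PRP, filled where no other such gene lies within 500 kb, and stars are the 4 genes; the stars lie between 13.4 and 91.7 CPM without PRP and between 1653 and 4743 CPM with it, while most filled circles sit at far lower levels on both axes.

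Together the 4 genes held 0.0189% of the counts in noPRP replicate 1 (95% Wilson interval 0.01835 to 0.01955) and 0.0178% in replicate 2 (0.01721 to 0.01835). With PRP their share was 1.32% in replicate 1 (1.312 to 1.321) and 0.701% in replicate 2 (0.6978 to 0.7045). The intervals cover counting error only, and the ends of a read pair were counted separately, which makes them too narrow. Averaged by group this was 0.0184% ± 0.000825 without and 1.01% ± 0.435 with PRP (SD, n = 2 each). The summed share was thus nearly equal in the noPRP libraries, although the chromosome 13 gene made up 8.22% of the 4 genes' counts in replicate 1 and 40.5% in replicate 2, and the GL018806 gene 68.8% and 39.2%.

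The chromosome 13 gene alone gave most of the difference between the PRP libraries. It held 0.770% of all counts in PRP replicate 1 and 0.149% in PRP replicate 2, that is 58.5% and 21.3% of the 4 genes' counts. The GL018806 gene held 0.210% and 0.264% of all counts, the chromosome 5 gene 0.203% and 0.107%, and the GL018717 gene 0.133% and 0.181%. A gene on GL018733 took 8.18% and 5.46% of the PRP counts and so lowers the share of every other gene; without its counts the 4 genes held 1.43% and 0.742%. Of the counts of all genes called higher, the 4 held 9.62% and 7.86% in the PRP libraries and 13.5% and 10.4% in the noPRP libraries. Leaving out the GL018733 gene, they held 23.9% and 20.2% with PRP and 18.1% and 20.7% without it.

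The libraries of a group differed more for the chromosome 13 gene than for the other 3. In PRP, replicate 1 was above replicate 2 by 1.59-fold for the chromosome 5 gene, and replicate 2 was above replicate 1 by 1.49-fold for the GL018806 gene and 1.61-fold for the GL018717 gene. For these 3, between 60.2% and 66.3% of tested genes differed more between the PRP libraries. The chromosome 13 gene was 4.35-fold higher in PRP replicate 1, and 12% of tested genes differed more. In noPRP the ratio between libraries was 1.10 for the chromosome 5 gene, 1.40 for the GL018717 gene and 1.86 for the GL018806 gene, and 92.6%, 75.5% and 55.2% of tested genes differed more. For the chromosome 13 gene it was 4.65, and 11% of tested genes differed more. These shares are over the 12367 tested genes with counts in all 4 libraries, whose median difference between libraries, on the log2 scale and in size, was 1.0 in noPRP and 0.88 in PRP.

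Most tested genes near the chromosome 13 gene differed between libraries in the same directions as it did. It was higher in noPRP replicate 2 (log2 of replicate 1 over replicate 2, −2.22) and in PRP replicate 1 (2.12). Of the 12 tested genes within 1 Mb, 8 had both of these directions, against 38.6% of all tested genes, with medians of −0.77 and 0.83. The 3 tested genes on its higher-coordinate side nearest to it all had them, at −1.47 and 2.18, −2.35 and 1.78, and −1.60 and 0.93. The GL018717 gene was higher in noPRP replicate 1 and PRP replicate 2, as were 10 of the 21 tested genes within 1 Mb, against 36.4% of all tested genes. For the GL018806 gene, with the same 2 directions, 2 of 8 neighbours with counts in all libraries had them, and for the chromosome 5 gene 6 of 14. These opposed directions were common in the whole series: of all tested genes with counts, 38.6% had the directions of the chromosome 13 gene and 36.4% those of the GL018717 gene, against 12.5% and 12.4% higher in replicate 1 or in replicate 2 of both groups. The part of these differences between libraries in the changes with PRP was not tested.

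**Figure D3:**
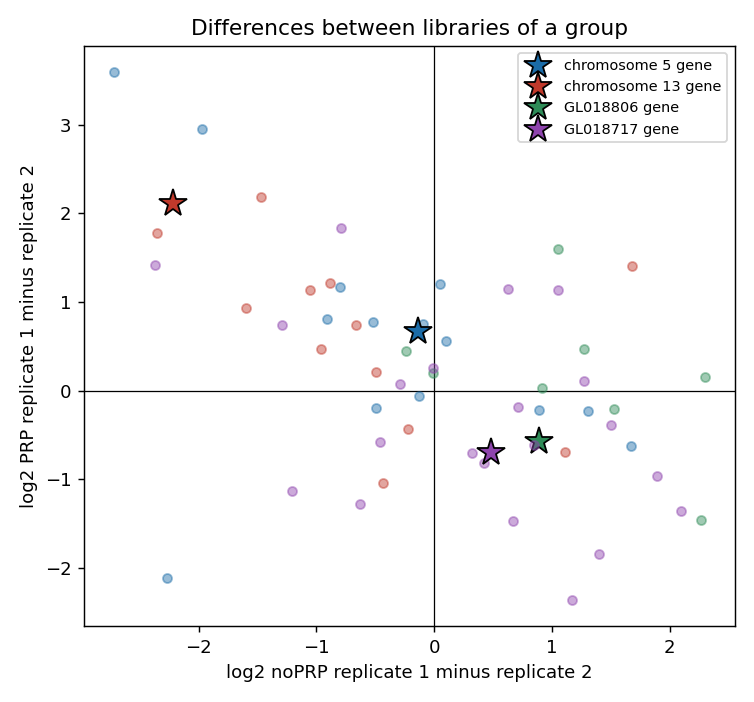
Log2 ratio of replicate 1 to replicate 2 in noPRP (horizontal) and in PRP (vertical) for the 4 genes (stars) and for the tested genes within 1 Mb of each that had counts in all libraries (circles of the same colour). The chromosome 13 gene lies at −2.22 and 2.12, in the upper left field together with 8 of its 12 neighbours.

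The neighbours of the 4 genes did not pass the test. The 3 nearest listed genes on each side gave 24 flanking genes, of which 19 were tested and 0 were called by edgeR, with 3 at an unadjusted p under 0.05 (13.3% of all tested genes reached that). DESeq2 and edgeR without a filter on low counts each called 1 of them. Within 1 Mb, 57 genes were tested and 0 were called by edgeR, against 0.858% of all tested genes called in either direction. The lack of called neighbours was part of how the 4 genes were chosen, so it is no result about their surroundings. Of the 57, 7 had an unadjusted p under 0.05 by edgeR, and DESeq2 and edgeR without a filter each called 3. Over the whole series DESeq2 called 728 of the 12707 tested genes. A gene that misses the threshold is not shown to be unchanged. Of the 19 tested flanking genes, 17 had positive fold changes, where 51.1% of all tested genes and 70.8% of those on unplaced sequences had. Within 1 Mb, 34 of 57 were positive and the median was 0.28 (log2). That of the 19 flanking genes was 0.89 (range −0.25 to 3.63), and 12 had both PRP libraries above both noPRP libraries, against 23.8% of all tested genes.

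Around the chromosome 5 gene no tested neighbour within 1 Mb reached an unadjusted p under 0.05 by edgeR. The nearest gene, on the plus strand 2384 bases away at positions 27493117 to 27496600, held 153 and 173 counts without PRP against 188 and 163 with PRP. The fitted log2 difference of this gene was 0.13 (SE 0.83; adjusted p = 0.947 by edgeR), next to a gene that differed 123-fold. On the other side, the nearest gene, 27142 bases away, had 273 and 89 counts without PRP and 330 and 424 with it (log2 fold change 1.09, SE 0.87, edgeR adjusted p = 0.573). The 14 tested genes within 1 Mb had log2 fold changes from −1.22 to 1.09, with a median of −0.28, and 5 were positive. The nearest other gene called higher on chromosome 5 was 4.61 Mb away.

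Around the chromosome 13 gene, 3 of the 12 tested genes within 1 Mb had positive fold changes, and the median log2 fold change was −0.25. The nearest gene on its lower-coordinate side, at positions 52845460 to 52860283, had 0 counts in all 4 libraries. The nearest on the other side, at positions 52938401 to 52952144 and 31052 bases away, held 7 and 20 counts without PRP against 158 and 29 with PRP. Its groups did not overlap and PRP replicate 1 was highest, as for the chromosome 13 gene itself, and its log2 fold change of 2.73 (SE 1.08) did not pass (edgeR adjusted p = 0.287). The next gene, at positions 52956799 to 52995571, held 448 and 2364 counts without PRP against 1954 and 474 with PRP, so its groups overlapped fully. The nearest other gene called higher on this chromosome lay 3.98 Mb away and the nearest called lower 8.15 Mb away.

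On GL018806 the last listed gene ends at position 925913, so the lack of called neighbours could not be seen further on that side. All 28 other listed genes lay within 1 Mb of the GL018806 gene, and every tested one leaned towards PRP. All 10 had positive log2 fold changes, with a median of 1.47, also with the other scalings, where the median lay between 1.25 and 1.46. Of the 10, 8 had both PRP libraries above both noPRP libraries, against 23.8% of all tested genes. That share was not computed for unplaced sequences alone. Over the 3407 tested genes on unplaced sequences 70.8% were positive and the median was 0.66, so a positive sign was common there. The nearest gene, on the opposite strand 486 bases away at positions 731312 to 732097, held 38 and 8 counts without PRP against 44 and 33 with PRP, and its groups overlapped (log2 fold change 0.74, SE 1.01, edgeR adjusted p = 0.733).

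Further along GL018806, 2 genes had 0 counts in both noPRP libraries. The one at positions 805717 to 856250 held 23 and 24 counts in the libraries with PRP. Against a floor of 3 counts summed over noPRP this is at least 15.9-fold higher, with an edgeR adjusted p = 0.0643. The one at positions 859867 to 866585 held 24 and 18 counts and was at least 14.2-fold higher, with an edgeR adjusted p = 0.0693. Both missed the threshold here and passed it with DESeq2 (adjusted p = 0.0128 and 0.0205) and without a filter on low counts (adjusted p = 0.00892 and 0.0162). By those fits the GL018806 gene is not the only one called higher on its sequence. Over the alternatives in which they were tested, the calls of these neighbours thus depended on the processing.

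The GL018717 gene lies within a longer gene on the other strand. That gene, at positions 2852885 to 3063632 with 26 exonic blocks, shares 0 exonic bases with it, so the exons of the GL018717 gene lie in introns of the longer gene. The counts do not use strand, so reads from unspliced RNA of the longer gene would be counted on these exons, and their part was not tested. The longer gene held 15730 and 4395 counts without PRP against 21283 and 34473 with PRP, and its fitted log2 difference was 1.52 (SE 0.88; adjusted p = 0.479 by edgeR). In noPRP replicates 1 and 2 it had 716 and 193 CPM, against 27 and 19.3 CPM for the GL018717 gene. In PRP replicates 1 and 2 it had 885 and 1719 CPM, against 1331 and 2149 CPM.

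Other neighbours on GL018717 also had more counts with PRP without passing the test. The nearest gene outside the overlap, 27799 bases away at positions 2807142 to 2845301, held 319 and 147 counts without PRP against 1017 and 4353 with PRP. The fitted log2 difference was 3.63 (SE 0.98; adjusted p = 0.0993 by edgeR), and it was called with DESeq2 (adjusted p = 0.00271), without a filter (adjusted p = 0.0106) and without noPRP replicate 1 (adjusted p = 0.034, with the lone noPRP library assumed to vary like the PRP libraries). A very abundant gene 76743 bases away, at positions 2710944 to 2796357, had 28014 and 22390 CPM in noPRP and 35511 and 57612 CPM in PRP (log2 fold change 0.89, SE 0.89, edgeR adjusted p = 0.646). Of the 21 tested genes within 1 Mb 16 were positive, and 12 with total counts as the scaling, where the median of all tested genes was −0.21. Their median log2 fold change was 0.38, and that of the GL018717 gene exceeded it by 5.85.

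**Figure D4:**
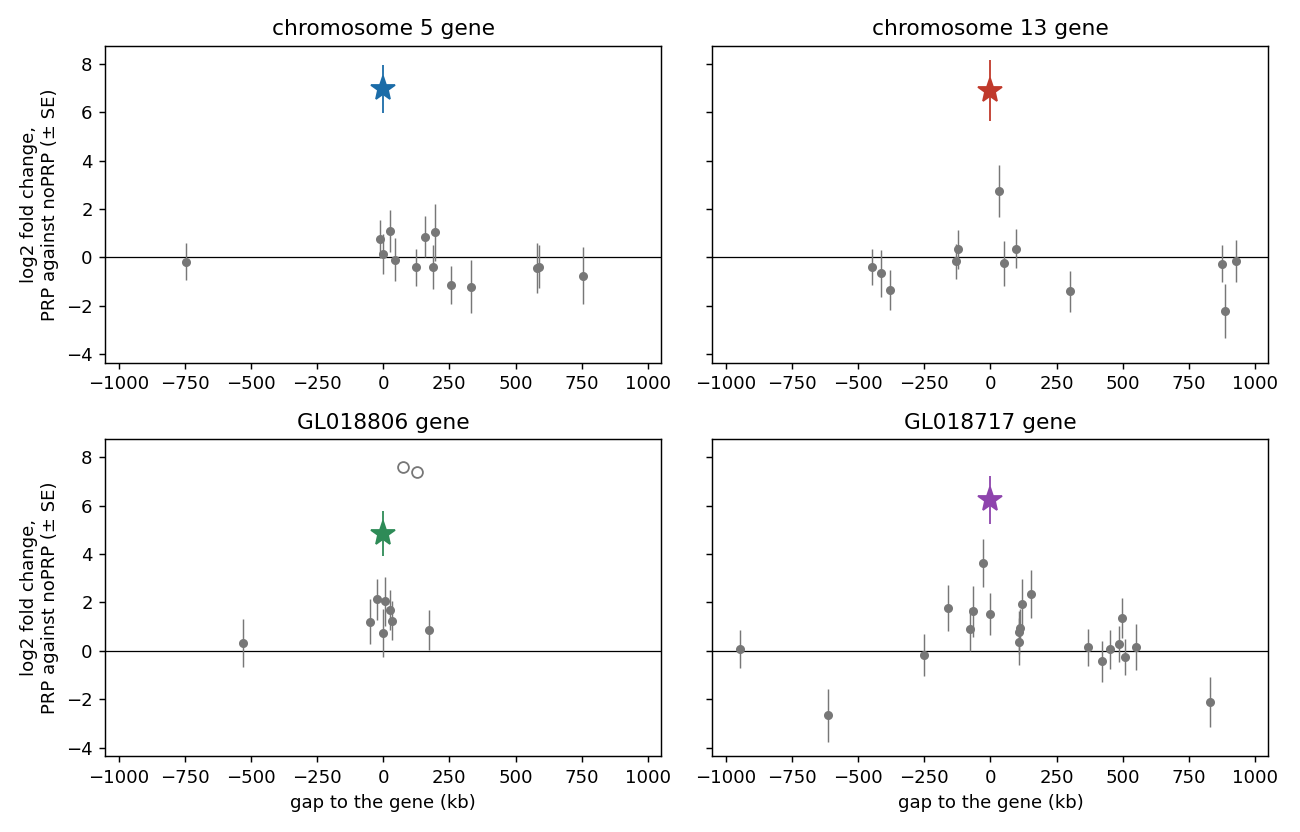
Log2 fold change of PRP against noPRP (vertical, with SE as bars) for each of the 4 genes (star at 0) and for the tested genes within 1 Mb, placed by the gap between the genes in kb (horizontal; negative on the lower-coordinate side, 0 for the gene that overlaps). Open circles without bars are the 2 genes with 0 counts in noPRP, whose fitted value depends on the prior count and is no bound. The star exceeds the median of its neighbours by 7.22 for chromosome 5, 7.13 for chromosome 13, 3.36 for GL018806 and 5.85 for GL018717.

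Among genes called higher in PRP, 37 of 68 had no other such gene within 500 kb, and the 4 genes were the first 4 of these 37 by mean PRP level. The next below, just outside the 4, lies on chromosome 5 at positions 12871164 to 12909375. It had 18.2 and 42.2 CPM in noPRP and 1065 and 1473 CPM in PRP, a mean of 1269 CPM against 1653 for the lowest of the 4. The one after that, on GL018847 at positions 453615 to 456754, had 2.32 and 0.572 CPM in noPRP and 312 and 189 CPM in PRP. Below these the levels fell away: the 33 other isolated genes had a median of 16.2 CPM in PRP and 0.091 CPM in noPRP, and 7 had 0 counts in both noPRP libraries. Their median log2 fold change with genes at 0 set to their bound was 6.19. The 4 genes held 84.8% and 77.9% of all counts of the 37 in the PRP libraries, and 83.4% and 76.1% in the noPRP libraries. Their place at the top of the 37 follows from the choice of abundant genes.

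The profile over the 4 libraries was compared with that of 7464 other genes of at least 10 CPM on average, as the root mean square difference of log2(CPM + 1) after centring each gene on its own mean. The value 1 that was added flattens genes near 0, so a likeness of profiles is not a likeness of fold changes. The nearest profile to the chromosome 5 gene was that of a gene on chromosome 14 at positions 94119060 to 94143870, at a distance of 0.10, with 0 and 0.088 CPM in noPRP and 140 and 105 CPM in PRP. The nearest to the chromosome 13 gene lay on chromosome 15 at positions 76286920 to 76287475, at a distance of 0.44. That gene was also higher in noPRP replicate 2 and in PRP replicate 1, with 15.2 and 35.0 CPM without PRP and 3956 and 950 CPM with it. The second nearest, at positions 76297487 to 76298504 of the same chromosome, had 27.1 and 223 CPM and 12034 and 1794 CPM (distance 0.62).

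The GL018806 gene was nearest to a gene on GL018767 at positions 816468 to 823062 (distance 0.14), with 1.5 and 0.088 CPM in noPRP and 34.7 and 50.2 CPM in PRP. Next came a gene on chromosome 3 at positions 22754438 to 22755771 (distance 0.16). The GL018717 gene was nearest to a gene on GL018752 at positions 912089 to 943619 (distance 0.39), with 0.364 and 0.352 CPM in noPRP and 93.8 and 76.0 CPM in PRP. Among the 4 genes themselves the closest pair were the chromosome 5 and GL018717 genes at 0.62. The chromosome 13 gene was at 0.88 from its nearest, the chromosome 5 gene. The nearest of 7464 genes tends to lie closer than the nearest of so few, so the distances do not show which were more alike. With 4 libraries these distances are descriptions.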

How the data were processed

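For each library the authors deposited a table of raw counts. STAR 2.7.2a and OryCun2.0 are named in the submitters' processing notes. Per the file headers, featureCounts 1.6.5 made the counts and exons of Ensembl 98 genes were summed with no option for strand, pairs, multiple alignments or overlaps, so by default reads were counted without strand, pair ends separately, and reads with several alignments were dropped. Genes with near-identical copies are therefore uncertain. Names could not be attached: 0 of 29587 identifiers matched the gene table used, from another assembly, so the marker lists had no result.

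Genes were filtered with filterByExpr, scaled by TMM (factors 1.09, 1.09, 1 and 0.842 for noPRP 1, noPRP 2, PRP 1 and PRP 2) and fitted with edgeR 4.0.16 in R 4.3.3 (group as the only term, Benjamini-Hochberg over 12707 genes). The 12707 genes held 99.92% to 99.94% of the counts. Each gene had 2 residual degrees of freedom, to which the fit added 11.4 from other genes at the median. Each SE is the size of the log2 fold change divided by the square root of the test's F statistic. An exact permutation test of 2 against 2 cannot go below a two-sided p of 0.333.

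Named genes were the 4 genes, 3 flanking genes on each side, all tested genes within 1 Mb, isolated genes called higher (gap 500 kb) and the nearest profiles; the genes, lists and rules were chosen with earlier results of these data known, and genes picked out from the 1 Mb windows and the overlapping gene were chosen after their values were seen. Alternatives were other scalings, filters, DESeq2 1.42.0, a replicate block and leaving out each library.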

Additional observations from a re-analysis of the deposited data

How the results depend on the processing

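The log2 fold changes of the 4 genes kept their direction in all 11 alternatives. Leaving out each library gave 6.56 to 7.29 for chromosome 5, 5.47 to 8.37 for chromosome 13, 4.44 to 5.36 for GL018806 and 5.88 to 6.52 for GL018717. The kept sign is fixed by the choice of genes, whose groups do not overlap, and the size of such moves by the difference between the libraries of a group, so neither shows stability. The GL018806 gene was not called without noPRP replicate 2 (log2 fold change 4.44) or with the replicate block, where its log2 fold change of 4.88 was as large as the main 4.84; the other 3 were called in each of their 11 alternatives. Fits without a library take the spread of the lone library from the other group.

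The number of called genes, 109 (68 higher, 41 lower), was 60 with upper-quartile normalization (46 and 14), 565 without a filter (230 and 335), 728 with DESeq2 (306 and 422), 57 with the replicate block (46 and 11), 102 with total counts (56 and 46) and 114 to 571 without a library, the highest without noPRP replicate 1 (138 higher, 433 lower). Flanking genes called, 0 with the main edgeR fit, numbered 1 in the edgeR fit without a filter and 1 with DESeq2. Genes called within 1 Mb, 0 with the main edgeR fit, numbered 3 in each of these alternatives. Isolated genes called higher, 37, numbered 134 without a filter, 173 with DESeq2 and 44 to 89 without a library. Why these counts shifted (the cause) was not tested. Total counts moved the median log2 fold change of all genes from 0.04 to −0.21.

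The labels do not say that replicate numbers pair libraries, and libraries of the same number deviated from their group means in opposite ways (correlation over genes −0.63); a crossed pairing, chosen after the data were examined, gave 3588 called genes. Depth limits the genes with few counts; for the chromosome 5 gene in noPRP, the counting intervals of the libraries overlapped (0.001239% to 0.001566% and 0.001365% to 0.001699% of counts).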
